A study of Homo sapiens with 12 samples.

Results

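The clustered histone genes are the genes that encode the linker histone H1 and the core histones H2A, H2B, H3 and H4 in the histone gene clusters of the human genome. They were taken as every gene whose symbol begins with HIST1H, HIST2H, HIST3H or HIST4H, which gave 73 of the 26365 genes in the table. By class, 6 were H1, 18 were H2A, 20 were H2B, 14 were H3 and 15 were H4 genes. In the GENCODE annotation 56 of them lie on chromosome 6, 16 on chromosome 1 and 1, HIST4H4, on chromosome 12.

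Core histones form the protein spool around which DNA is wound, and H1 binds the DNA between spools. Most clustered histone genes are replication-dependent: their main mRNAs are made in S phase, lack introns and end in a conserved stem-loop, bound by the protein SLBP, in place of a poly-A tail. Many of these genes can also make longer, polyadenylated mRNAs that run past the stem-loop. Poly-A selection is made to keep polyadenylated RNA and to lose RNA that ends at the stem-loop. The values below are therefore read as the polyadenylated share of histone RNA. Which form the reads came from was not tested.

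RNA came from HCC70, an established line of human breast cancer of the basal-like, triple-negative kind. Its cells stably expressed a hairpin RNA that targets LAD1 (called shLAD1 cells) or a control hairpin of scrambled sequence (called scramble cells). Both kinds of cells were held overnight in medium without serum and then received epidermal growth factor (EGF) at 50 ng/ml for 0, 40 or 240 min, giving 6 groups of 2 libraries. No library without EGF was used at 40 or 240 min, so an effect of EGF cannot be told apart from elapsed time or handling. The labels name 1 hairpin for LAD1, so loss of LAD1 and other effects of that hairpin cannot be told apart. They do not say whether the 2 libraries of a group came from separate cultures, so p-values measure only a spread between samples that may be technical. In bulk RNA, fewer cells that hold a transcript and less of it per cell cannot be told apart.

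The libraries held 12428618 to 16721013 reads over genes. LAD1, the targeted gene, was at 5808 to 10194 normalized counts in the 6 scramble libraries and at 865 to 2535 in the 6 shLAD1 libraries, so every shLAD1 library was lower (limma log2 fold change -2.39 ± 0.08, adjusted p = 2.28e-06). Of 8 basal epithelial markers 7 were at 344 or more normalized counts in every library, KRT5 highest at 39623 to 78195, while TP63 was at 15.4 to 34.5. KRT14 ran from 969 to 1218 in scramble libraries. In shLAD1 cells it split by replicate number. At 0, 40 and 240 min it was at 544, 560 and 520 in replicate 1 and at 1558, 1826 and 1882 in replicate 2. Of the luminal and hormone-receptor markers ESR1 was at 18 to 29 and PGR at no more than 1.03, while ERBB2 was at 1520 to 2566. A normalized count is the read count of a gene divided by the size factor of its library.

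Clustered histone RNA made up a small share of each library, with 2652 to 5303 reads, or 0.0208% to 0.0419% of the total. A few genes carried most of it. HIST1H2BK, an H2B gene, and HIST1H1C, an H1 gene, together gave 58.4% of the 50721 histone reads over the 12 libraries, and the 6 genes with the most reads gave 86.4%. By class, H2B genes gave 58.5% of the reads, H1 genes 24.5%, H2A genes 12.6%, H3 genes 2.65% and H4 genes 1.77%. These are shares of reads and not per length, because GENCODE gives only the coding stretch for many genes, HIST1H2BK and HIST1H1C among them. In 35 of the 73 the longest transcript has no stem-loop and a length that is a multiple of 3. Among the 35 is HIST1H4C, at 435 bases where the H4 gene HIST1H4D has 312, so fewer than 35 may be coding only.

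Most of the genes were near or at the limit of detection. Of the 73, 11 had 0 reads in all 12 libraries, 31 had reads but stayed under 10 normalized counts in every library, and 2 reached 10 in 1 library only. The other 29 reached 10 in at least 2 libraries and entered the test: 3 H1, 7 H2A, 12 H2B, 5 H3 and 2 H4 genes. The 33 genes that had reads but were not tested summed to 44 to 101 reads per library.

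Some of these genes have near-identical copies. For each gene, the share of 50-base windows of its annotated transcripts that occur in no other gene was counted. Of the 11 genes at 0 reads, 7 had under 3% such windows: HIST2H2AA3 and HIST2H2AA4, HIST2H3A and HIST2H3C, HIST2H4A and HIST2H4B, which are pairs of copies on chromosome 1, and HIST1H2AD. In the other 4, HIST1H2AA, HIST1H2BA, HIST1H4G and the pseudogene HIST1H2APS1, every window was found in no other gene. Among the 29 tested genes the median was 99.4%, with exceptions: HIST1H2BK had 25.9%, HIST1H2AM 13.7% and HIST1H3D 0%, the last inside the annotated locus AL031777.3. GENCODE gives only the coding stretch of these genes, of 381, 393 and 411 bases, so windows outside it were not counted. HIST1H2AK and HIST1H4K, also at 0%, had reads but were under the filter. Values of these genes may hold or lack reads of a copy, and how the authors counted reads that fit several genes is not given in the sources used here.

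**Figure D1:**
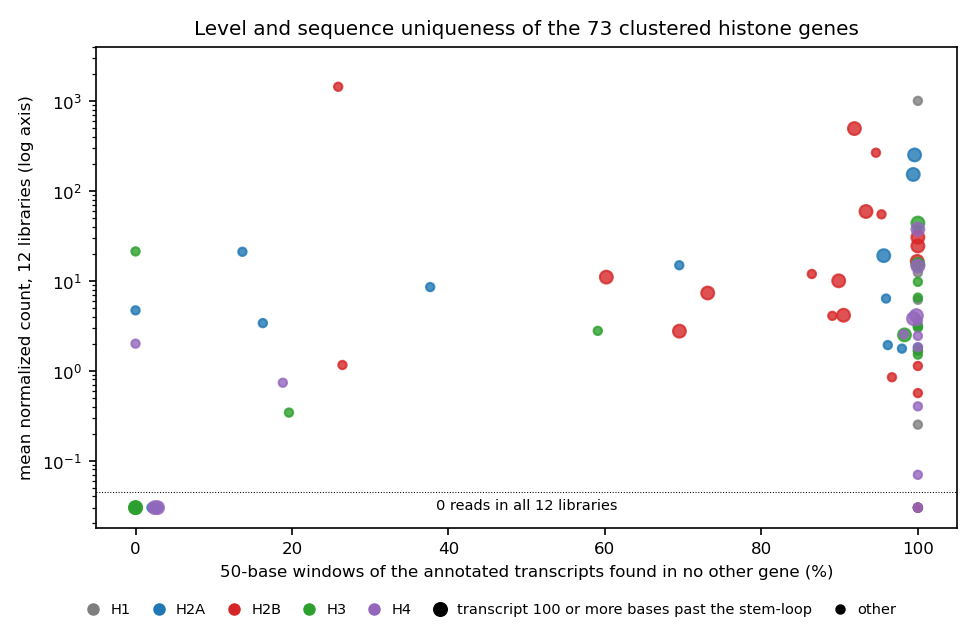
Each point is 1 of the 73 clustered histone genes. The horizontal axis gives the percent of its 50-base transcript windows found in no other gene, the vertical axis its mean normalized count over 12 libraries on a log axis, the colour its class, and larger points have an annotated transcript that runs 100 or more bases past the stem-loop. Genes with 0 reads are drawn at a fixed height under the dotted line, and 7 of the 11 sit at the left with under 3% of windows. The H2B gene HIST1H2BK, annotated with its coding stretch only, stands high at 25.9%.

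The stem-loop that marks replication-dependent histone mRNA was found in an annotated transcript of 33 of the 73 genes, and in 31 of these the stem pairs perfectly. By comparison 0.281% of the 19940 protein-coding genes in GENCODE carry it. A gene that GENCODE gives only as a coding stretch, such as HIST1H2BK or HIST1H1C, cannot show the stem-loop, so 33 may be too low. In 24 of the 33 an annotated transcript runs on for 100 or more bases past the stem-loop, and 15 of the 29 tested genes are among them. The stem-loops of the genes whose levels are described below are shown because they mark the end at which the usual, non-polyadenylated mRNA stops. Capitals give the 16-base stem-loop, a 6-base stem around a 4-base loop, and lower case the 5 bases on each side, 5′ to 3′ as DNA.
HIST2H2BE: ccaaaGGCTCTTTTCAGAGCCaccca
HIST1H2BD: ccaaaGGCTCTTTTAAGAGCCacgca
HIST1H2BG: tcaaaGGCTCTTTTCAGAGCCactca
HIST1H2BF: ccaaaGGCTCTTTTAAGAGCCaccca
HIST1H2AC: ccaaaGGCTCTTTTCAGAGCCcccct
HIST3H2A: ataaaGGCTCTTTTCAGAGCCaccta
HIST1H3H: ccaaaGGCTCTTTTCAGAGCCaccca
HIST1H3G: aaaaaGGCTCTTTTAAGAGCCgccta
HIST1H4H: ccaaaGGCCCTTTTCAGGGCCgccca

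The longest annotated transcript runs past the stem-loop by 1729 bases in HIST2H2BE, by 1059 in HIST1H2BG, by 732 in HIST1H2BF, by 1128 in HIST1H2AC and by 390 in HIST3H2A. It runs on by 769 bases in HIST1H3H, by 1518 in HIST1H3G and by 1655 in HIST1H4H. HIST1H2BD differs: the transcript that holds the stem-loop ends 39 bases after it. GENCODE gives 2 transcripts of this gene, and the longest, of 789 bases, has a poly-A signal near its end. The H4 gene carries a stem of other letters than the H2A, H2B and H3 genes shown. A poly-A signal (AATAAA or ATTAAA) stands near the end of the longest transcript in 24 of the 73 genes, against 70.4% of protein-coding genes. Many of the 73 are annotated only as a coding stretch, which leaves no 3′ end to search. The 24 are therefore not a measure of how many histone genes have such a signal. The table gives 1 value per gene, so the share of reads that came from RNA past the stem-loop was not tested.

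The region before the start site was compared because many H2B and H2A genes sit head to head. Genes of these classes were most of the called genes, but also most of the tested ones, with 12 H2B and 7 H2A genes of 29. RefSeq (GRCh38.p14) gave a promoter for 65 of the 73 genes. In the 250 bases before the start, on either strand, CCAAT was found in 55 of the 65, including all 18 H2B, all 16 H2A, all 12 H3 and all 6 H1 promoters but 3 of 13 H4 promoters, against 33.0% of the 27305 promoters in the table. TATAAA was found in 43 of the 65, against 11.1%. The octamer ATTTGCAT, the motif of the factor Oct-1, which is known for H2B transcription, was found in 26 of the 65, against 1.66%, with 14 of 18 H2B and 11 of 16 H2A promoters, 1 of 12 H3 promoters and 0 of the H1 and H4 promoters. The H3 promoter with the octamer, that of HIST1H3D, is the same stretch as the promoter of the H2A gene HIST1H2AD. Promoters of genes that start head to head overlap, so 1 copy of a motif can count for both genes. The promoters counted are thus not all separate. A match is a description of the letters and not a bound site.

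The last 150 bases before the start are shown for the genes that the results turn on, 5′ to 3′ on the strand of the gene, with every copy of these 3 motifs on either strand in capitals. The coordinates are chr1:149886683-149886832, minus strand, for HIST2H2BE, chr6:26157971-26158120, plus strand, for HIST1H2BD, chr6:26216689-26216838, minus strand, for HIST1H2BG and chr6:26199366-26199515, plus strand, for HIST1H2BF. They are chr1:228457874-228458023, minus strand, for HIST3H2A, chr6:26124022-26124171, plus strand, for HIST1H2AC, chr6:27146859-27147008, minus strand, for HIST1H2BK and chr6:26056471-26056620, minus strand, for HIST1H1C.
HIST2H2BE: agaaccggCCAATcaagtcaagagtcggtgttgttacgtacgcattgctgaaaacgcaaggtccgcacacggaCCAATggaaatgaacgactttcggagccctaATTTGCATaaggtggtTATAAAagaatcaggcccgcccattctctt
HIST1H2BD: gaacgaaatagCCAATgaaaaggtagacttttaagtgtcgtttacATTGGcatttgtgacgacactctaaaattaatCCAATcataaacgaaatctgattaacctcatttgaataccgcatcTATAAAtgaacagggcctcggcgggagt
HIST1H2BG: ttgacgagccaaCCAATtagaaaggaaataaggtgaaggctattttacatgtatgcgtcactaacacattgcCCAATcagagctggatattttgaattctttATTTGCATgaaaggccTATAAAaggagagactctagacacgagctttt
HIST1H2BF: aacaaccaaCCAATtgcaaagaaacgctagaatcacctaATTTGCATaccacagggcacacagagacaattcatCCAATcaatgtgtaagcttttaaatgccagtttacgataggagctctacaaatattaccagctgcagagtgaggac
HIST3H2A: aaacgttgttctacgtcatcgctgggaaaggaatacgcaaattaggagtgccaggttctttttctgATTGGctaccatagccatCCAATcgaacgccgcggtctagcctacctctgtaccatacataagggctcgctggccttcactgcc
HIST1H2AC: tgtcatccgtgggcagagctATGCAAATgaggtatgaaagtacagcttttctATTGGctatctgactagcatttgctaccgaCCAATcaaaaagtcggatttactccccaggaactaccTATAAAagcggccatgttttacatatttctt
HIST1H2BK: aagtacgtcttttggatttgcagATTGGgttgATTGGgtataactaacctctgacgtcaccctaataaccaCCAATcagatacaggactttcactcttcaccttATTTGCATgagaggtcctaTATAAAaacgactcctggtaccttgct
HIST1H1C: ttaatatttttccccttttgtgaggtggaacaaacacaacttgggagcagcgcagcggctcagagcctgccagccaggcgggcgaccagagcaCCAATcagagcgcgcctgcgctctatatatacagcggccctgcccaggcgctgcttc

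The 8 windows differ in these letters. All 8 hold CCAAT. HIST2H2BE, HIST1H2BG, HIST1H2BK and HIST1H2AC hold the octamer and TATAAA as well, HIST1H2BF holds the octamer without TATAAA, HIST1H2BD holds TATAAA without the octamer, and HIST3H2A and HIST1H1C hold neither of the other motifs. Genes that start head to head read the same stretch in opposite directions. HIST2H2BE and HIST2H2AC start 236 bases apart, and GENCODE gives only the coding stretch of the latter, so their levels are not compared per length. HIST3H2A and HIST3H2BB start 230 bases apart, with mean normalized counts per kb of their longest GENCODE transcript of 171 and 1.75, and HIST1H2BC and HIST1H2AC start 246 bases apart, with 89.8 and 151 per kb.

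The summed level of each class gives the broad view before single genes. H2B genes summed in scramble cells to 2536 and 2218 at 0 min, 2576 and 2133 at 40 min and 2128 and 1746 at 240 min, and in shLAD1 cells to 2605 and 3044 at 0 min, 2655 and 2887 at 40 min and 2102 and 2723 at 240 min. H2A genes summed in scramble cells to 516 and 522 at 0 min, 472 and 508 at 40 min and 366 and 351 at 240 min, and in shLAD1 cells to 629 and 709 at 0 min, 559.9 and 669.5 at 40 min and 446 and 554 at 240 min. H1 genes summed in scramble cells to 968 and 817 at 0 min, 909 and 806 at 40 min and 861 and 715 at 240 min, of which HIST1H1C made up 97.7% over all libraries. For H2A, H3 and H4, both 240 min libraries were below both 0 min libraries in each kind of cells. This also held for the H2B sum without HIST1H2BK. The full H2B sums overlapped in shLAD1 cells and the H1 sums in both. The ratio of 240 to 0 min within each replicate number was 0.691 ± 0.027 (SD, n = 2) for H2A, 0.813 ± 0.037 for H2B and 0.882 ± 0.011 for H1 in scramble cells. In shLAD1 cells the same ratios were 0.745 ± 0.051, 0.851 ± 0.062 and 0.903 ± 0.041. HIST1H2BK made up 59.0% of the H2B sum, and without it the H2B ratio was 0.677 ± 0.0024 in scramble and 0.711 ± 0.027 in shLAD1 cells. H3 genes, at 72.0 to 173 summed normalized counts, had ratios of 0.676 ± 0.061 and 0.742 ± 0.014, and H4 genes, at 57.3 to 96.3, had ratios of 0.755 ± 0.16 and 0.763 ± 0.032. These sums are descriptions and carry no test.

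**Figure D2:**
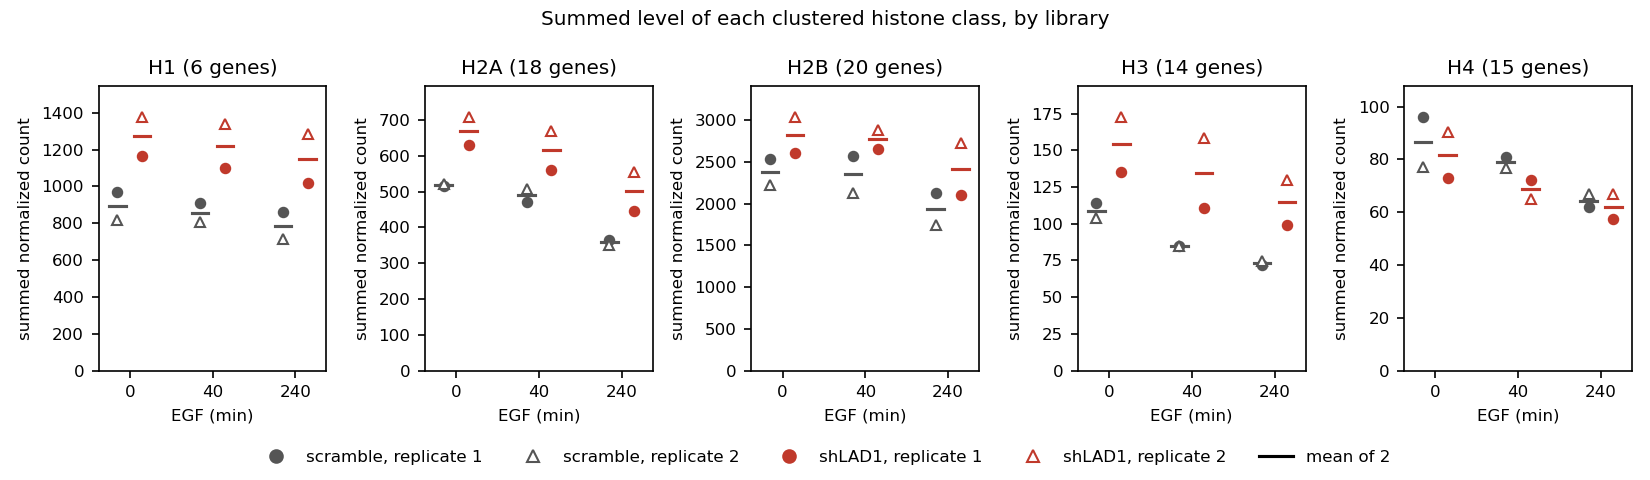
Summed normalized count of all genes of a class (vertical axis, from 0) against EGF time in min (horizontal axis) for scramble and shLAD1 cells. Circles and triangles are the libraries of replicate 1 and 2 and bars their mean; the H2A sums fall from 516 and 522 to 366 and 351 in scramble cells, and the H1 sums of all shLAD1 libraries, 1018 or more, lie above all scramble libraries.

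The first EGF comparison asks how the genes stood after 40 min. None passed the test: 0 of 29 tested genes were called in scramble and 0 in shLAD1 cells by limma, where 0.853% and 1.04% of all 13950 genes tested were called (adjusted p under 0.05, Benjamini-Hochberg). At an unadjusted p under 0.05 there was 1 gene in each, and edgeR and DESeq2 on recovered reads also called 0. The genes with the most reads lay close to their 0 min values, with log2 fold changes of 0.0 ± 0.19 for HIST1H2BK, -0.04 ± 0.17 for HIST1H1C and 0.03 ± 0.19 for HIST2H2BE in scramble cells. In shLAD1 cells the same values were -0.01 ± 0.19, -0.06 ± 0.17 and 0.02 ± 0.19. The median of the 29 was -0.14 in both kinds of cells. Over the 62 genes with any read, the mean at 40 min was below the mean at 0 min in 38 genes and above it in 24 in scramble cells, and below it in 42 and above it in 19 in shLAD1 cells. Of all genes with a read, 48.0% and 47.9% had a lower mean.

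After 240 min of EGF, 5 of the 29 tested genes were lower in scramble cells and 0 were higher, where 8.44% of all genes tested were called lower and 11.7% higher. The 5 were the H2B genes HIST1H2BF, HIST1H2BD, HIST2H2BE and HIST1H2BG and the H2A gene HIST3H2A. In shLAD1 cells 1 of the 29, HIST1H2BG, was called lower and 0 were called higher, where 7.76% and 10.8% of all genes were called. The median log2 fold change of the 29 was -0.49 in scramble and -0.45 in shLAD1 cells, and that of all genes tested was -0.02 and -0.01. The fitted change was below 0 in 26 of the 29 in scramble cells, against 51.9% of all genes tested, and in 27 in shLAD1 cells, against 51%. Over the 62 genes with any read, 43 had a lower mean at 240 than at 0 min in scramble cells and 17 a higher one, and 51 were lower and 9 higher in shLAD1 cells. For all genes with a read the lower share was 47.5% and 49.2%.

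HIST2H2BE, which encodes an H2B protein and had the third most reads, was in scramble cells at 529 and 499.7 at 0 min, 556 and 493 at 40 min and 350.1 and 309.5 at 240 min. In shLAD1 cells it was at 514 and 679.8 at 0 min, 539.7 and 669.5 at 40 min and 328 and 469 at 240 min. All 4 libraries at 240 min were below all 8 others. The log2 fold change was -0.64 ± 0.19 (adjusted p = 0.0454) in scramble and -0.59 ± 0.19 (adjusted p = 0.0653) in shLAD1 cells, so without a block the gene passed the limma threshold in scramble cells and missed it in shLAD1 cells. With the replicate number as a block, both passed, with adjusted p of 0.023 and 0.0345.

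HIST1H2BD is an H2B gene with an annotated transcript that ends close after the stem-loop and a longer one with a poly-A signal. In scramble cells it was at 252 and 232 at 0 min, 248 and 224 at 40 min and 185 and 156 at 240 min. In shLAD1 cells it was at 349 and 348 at 0 min, 357 and 298 at 40 min and 263 and 289 at 240 min. The 240 min libraries were lowest in both kinds of cells, and every shLAD1 library was above every scramble library. The 240 min change was -0.51 ± 0.13 (adjusted p = 0.0233) in scramble and -0.34 ± 0.13 (adjusted p = 0.109) in shLAD1 cells, and with the replicate block the latter had an adjusted p of 0.0458.

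HIST3H2A, an H2A gene of the chromosome 1 cluster, was in scramble cells at 157 and 182 at 0 min, 136 and 149 at 40 min and 120.5 and 101 at 240 min. In shLAD1 cells it was at 182 and 178 at 0 min, 140.0 and 181 at 40 min and 151 and 154 at 240 min. Both scramble libraries at 240 min were below the other 4, whereas in shLAD1 cells the lowest library was one at 40 min. The change was -0.61 ± 0.16 (adjusted p = 0.0242) in scramble and -0.23 ± 0.16 (adjusted p = 0.355) in shLAD1 cells.

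HIST1H2BG and HIST1H2BF, H2B genes with few reads, had the largest called changes. HIST1H2BG was in scramble cells at 32.1 and 36 at 0 min, 23 and 21.7 at 40 min and 12.4 and 22.3 at 240 min, and in shLAD1 cells at 37 and 31.5 at 0 min, 27 and 23.1 at 40 min and 14.3 and 13 at 240 min. The 240 min libraries were below the 0 min libraries in both kinds of cells, with changes of -0.99 ± 0.30 (adjusted p = 0.0479) and -1.26 ± 0.30 (adjusted p = 0.0195). HIST1H2BF was in scramble cells at 21.7 and 22.6 at 0 min, 13.5 and 20.04 at 40 min and 6.75 and 10.02 at 240 min, and in shLAD1 cells at 19.5 and 20.4 at 0 min, 19.3 and 16.8 at 40 min and 16.4 and 11 at 240 min. Its change was -1.33 ± 0.34 (adjusted p = 0.0231) in scramble and -0.54 ± 0.34 (adjusted p = 0.322) in shLAD1 cells. At these levels the calls turned on the test: DESeq2 gave adjusted p of 0.198 for HIST1H2BG and 0.126 for HIST1H2BF in scramble cells, and 0.0612 for HIST1H2BG in shLAD1 cells, where it called HIST2H2BE instead (adjusted p = 0.0437).

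HIST1H2AC, an H2A gene that missed the threshold, was in scramble cells at 246 and 227 at 0 min, 221 and 241 at 40 min and 163 and 150.3 at 240 min, and in shLAD1 cells at 288 and 352 at 0 min, 302 and 355 at 40 min and 189 and 286 at 240 min. Its 240 min libraries were the lowest in scramble cells, while in shLAD1 cells the higher 240 min library lay just below the lower 0 min library. The changes were -0.59 ± 0.19 (adjusted p = 0.058) and -0.45 ± 0.19 (adjusted p = 0.144). Under the replicate block it passed in scramble cells, with an adjusted p of 0.0166, and with the block within each hairpin also in shLAD1 cells, with 0.00144.

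The 2 genes with the most reads had smaller fitted changes than these. HIST1H2BK was in scramble cells at 1509 and 1220.5 at 0 min, 1530.1 and 1209 at 40 min and 1434 and 1069 at 240 min, and in shLAD1 cells at 1468 and 1693 at 0 min, 1493 and 1648 at 40 min and 1315 and 1737 at 240 min. Replicate 1 was above replicate 2 at all 3 times in scramble cells and below it in shLAD1 cells, and in scramble cells this gap was wider than that between times. Its 240 min change was -0.13 ± 0.19 (adjusted p = 0.698) in scramble and -0.06 ± 0.19 (adjusted p = 0.881) in shLAD1 cells. HIST1H1C had changes of -0.18 ± 0.17 and -0.14 ± 0.17, which also missed the threshold (adjusted p = 0.522 and 0.635). HIST1H1C was lower at 240 than at 0 min in each of the 4 pairs of libraries with the same hairpin and number, and with the number as a block within each hairpin it passed in both kinds of cells, with adjusted p of 0.0134 and 0.0455. In that fit HIST1H2BK did not pass, with adjusted p of 0.0675 and 0.418.

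**Figure D3:**
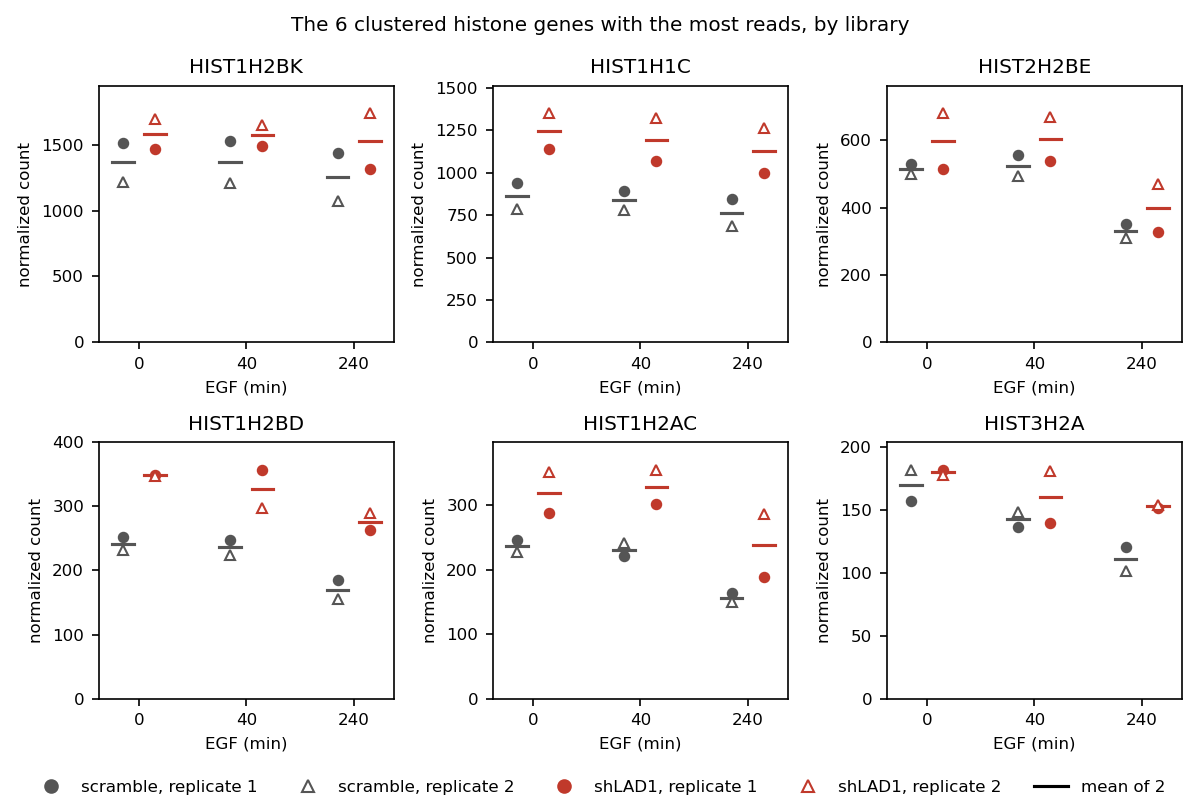
Normalized count per library (vertical axes, from 0) against EGF time in min (horizontal axes) for the 6 clustered histone genes with the most reads. Circles and triangles are the libraries of replicate 1 and 2 and bars their mean; HIST2H2BE falls to 310 to 469 at 240 min, and HIST1H1C and HIST1H2BD lie higher in all shLAD1 than in all scramble libraries.

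Among H3 and H4 genes no 240 min change passed the test without a block. HIST1H3D, an H3 gene that shares its sequence with a larger annotated locus, was in scramble cells at 21.7 and 23.6 at 0 min, 18.2 and 18.4 at 40 min and 5.63 and 14.5 at 240 min, and had a change of -1.23 ± 0.38 (adjusted p = 0.0513), which passed with the replicate block (adjusted p = 0.019). HIST1H3H had -0.44 ± 0.37 and HIST1H3G -0.53 ± 0.56 in scramble cells, with adjusted p of 0.457 and 0.566. HIST1H4H, the H4 gene with the most reads, ran from 28.3 to 51.8 normalized counts over the 12 libraries and had changes of -0.30 ± 0.28 and -0.14 ± 0.28. HIST1H4E ran from 5.63 to 20.6, with changes of -1.0 ± 0.45 and -0.51 ± 0.45, and passed in scramble cells with the block within each hairpin (adjusted p = 0.0312). HIST4H4, at 1.03 to 11.2, was under the filter. The remaining H1 genes with the most reads, HIST1H1E and HIST1H1B, did not pass either, with standard errors of 0.47 and 0.66 on the log2 scale.

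**Figure D4:**
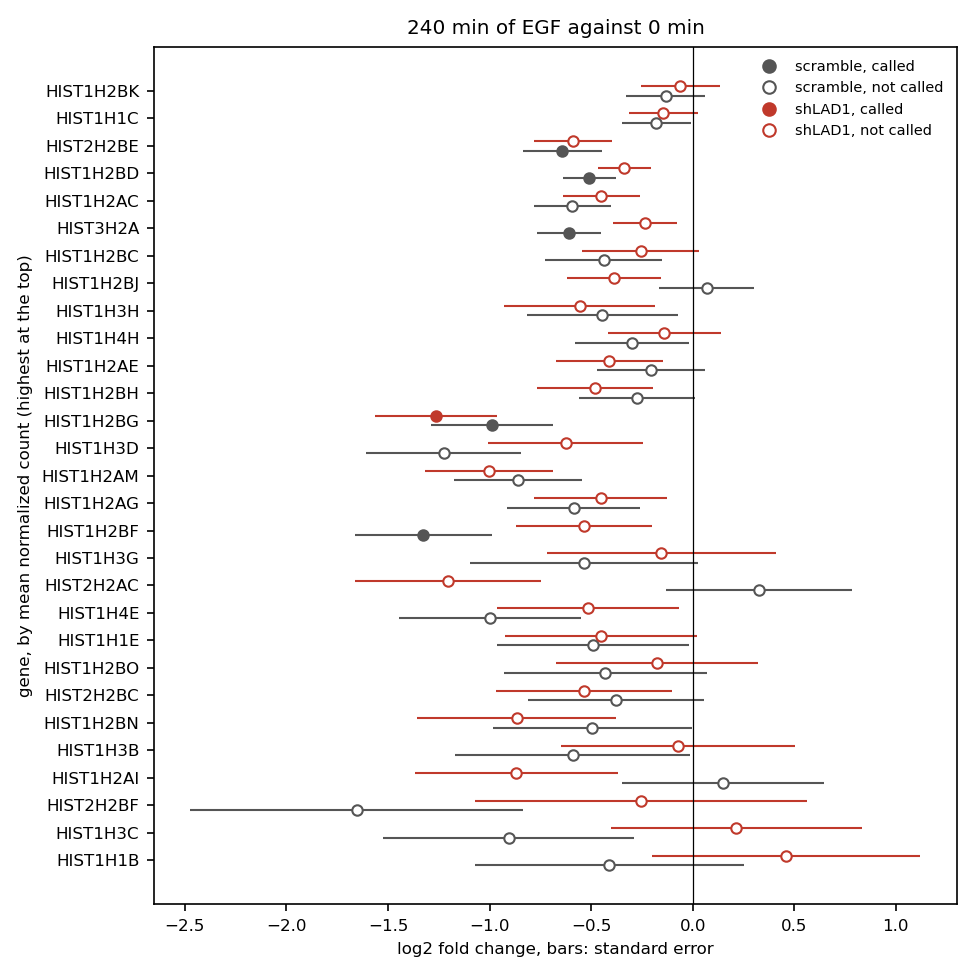
Log2 fold change of each of the 29 tested clustered histone genes at 240 against 0 min of EGF (horizontal axis), with bars of 1 standard error, in scramble and shLAD1 cells. Filled points were called at an adjusted p under 0.05: 5 genes in scramble and 1 gene in shLAD1 cells, all below 0; 26 and 27 of the 29 points lie below 0.

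Leaving out either scramble library at 0 min left 0 of the 5 calls in scramble cells, while 1503 (without replicate 1) and 1355 (without replicate 2) of all genes were still called, in place of 2813, and leaving out replicate 1 at 240 min left 2. With the replicate number as a block 8 of the 29 were called lower in scramble and 4 in shLAD1 cells, where 14.7% and 13.3% of all genes were called lower. With the block within each hairpin 11 and 7 were lower, where the shares of all genes were 22.9% and 21.6%. Scaling by total counts gave 8 and 4, against 15.9% and 13.8% of all genes. So the calls of all genes rose with those of the members.

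Whether the responses differed between the 2 kinds of cells was tested directly as an interaction. The limma fit called 0 of the 29 genes at 40 min and 0 at 240 min, as it did for 0% of all genes tested, and edgeR and DESeq2 also called 0. At an unadjusted p under 0.05 there was 1 gene at each time, HIST1H2AE at 40 min (difference -0.97 ± 0.37, unadjusted p = 0.0286, adjusted p = 1.0) and HIST2H2AC at 240 min (difference -1.53 ± 0.65, unadjusted p = 0.0426, adjusted p = 1.0). HIST2H2AC falls outside the rule for named genes and was chosen after its values were seen. It was at 8.28 to 18 normalized counts in scramble cells and at 6.0 to 25.7 in shLAD1 cells. The calls at 240 min in scramble cells are therefore not shown to be absent from shLAD1 cells.

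The knockdown comparison asks which genes differed with the hairpin, as the mean of the 3 times in shLAD1 cells less that in scramble cells. Of the 29 genes 5 were higher in shLAD1 cells and 0 were lower, where 9.25% of all genes tested were called higher and 9.3% lower. The 5 were HIST1H2BD, HIST1H1C, HIST1H2AC, HIST1H3G and HIST1H3H, genes of 4 classes. Libraries of a hairpin pair by replicate number across the 3 times, but these p-values treat them as independent. With 1 mean per hairpin and replicate number, 0 members and 0% of all genes were called, as set out below. The median log2 fold change of the 29 was 0.24 and that of all genes 0, and the fitted change was below 0 in 4 of the 29, against 50% of all genes. Over the 62 genes with any read, 43 had a higher mean in shLAD1 cells and 19 a lower one, and 49.1% of all genes with a read had a lower mean. In 3 of the 29 every shLAD1 library was above every scramble library, which held for 3.16% of all genes tested. HIST1H3G, HIST1H2AI and HIST2H2BF reached 10 normalized counts in 2 or more libraries only among shLAD1 cells, and HIST1H1B only among scramble cells. The counts over the 29 therefore rest in part on genes that the filter kept for their level in 1 kind of cells. HIST1H3G is among the 5 called genes and among the 3 without overlap.

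HIST1H1C, which encodes a linker histone, was in scramble cells at 941 and 788 at 0 min, 892 and 782 at 40 min and 845 and 684 at 240 min. In shLAD1 cells it was at 1142 and 1350.5 at 0 min, 1071 and 1321 at 40 min and 997 and 1267 at 240 min. The lowest shLAD1 library, at 997, was above the highest scramble library, at 941, and the fold change was 0.53 ± 0.10 on the log2 scale (adjusted p = 0.00751). HIST1H2BD, described above, also did not overlap, with a change of 0.56 ± 0.07 (adjusted p = 0.00172). HIST1H2AC changed by 0.50 ± 0.11 (adjusted p = 0.0154), and 1 of its shLAD1 libraries, replicate 1 at 240 min with 189, lay in the range of the scramble libraries, at 150.3 to 246.

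The other 2 are H3 genes with few reads. HIST1H3H was in scramble cells at 47.6 and 28.8 at 0 min, 30.1 and 30.1 at 40 min and 38.3 and 18.9 at 240 min, and in shLAD1 cells at 62.6 and 64.1 at 0 min, 50.2 and 70.2 at 40 min and 35.8 and 51 at 240 min. All but 1 of the shLAD1 libraries were above all scramble libraries, and the change was 0.79 ± 0.21 (adjusted p = 0.0339). HIST1H3G was in scramble cells at 11.4 and 7.2 at 0 min, 8.73 and 9.18 at 40 min and 4.5 and 7.79 at 240 min, and in shLAD1 cells at 16.4 and 30.5 at 0 min, 12.6 and 31.4 at 40 min and 13.3 and 30.02 at 240 min. The libraries did not overlap, and the change was 1.30 ± 0.33 (adjusted p = 0.0248). The filter kept HIST1H3G only for its level in shLAD1 cells, so its call and its lack of overlap are descriptions. Within shLAD1 cells replicate 2, at 30.0 to 31.4, was above replicate 1, at 12.6 to 16.4, at all 3 times. The genes HIST1H2BK and HIST2H2BE, with changes of 0.24 ± 0.11 (adjusted p = 0.173) and 0.22 ± 0.11 (adjusted p = 0.2), did not pass. For HIST1H2BK, replicate 1 of shLAD1 cells was below replicate 1 of scramble cells at all 3 times and replicate 2 was above.

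**Figure D5:**
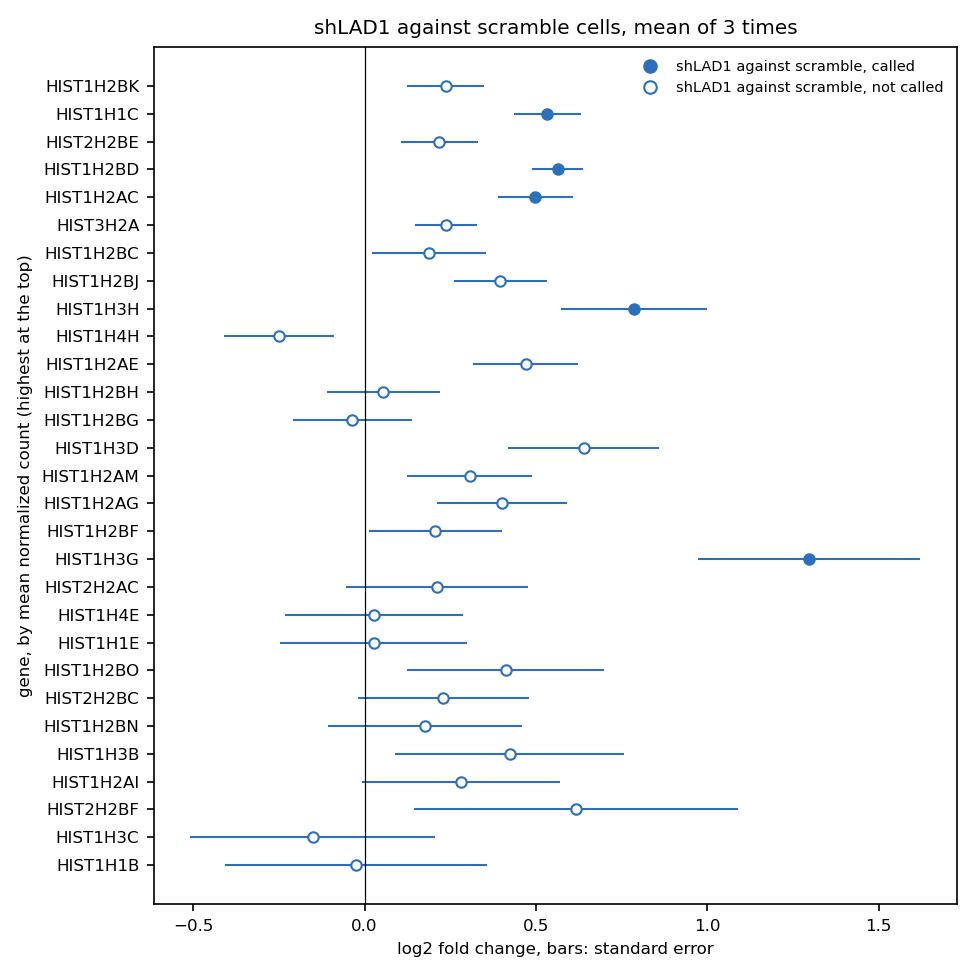
Log2 fold change of each of the 29 tested clustered histone genes of shLAD1 over scramble cells, as the mean of 3 times (horizontal axis), with bars of 1 standard error. Filled points, 5 genes, were called at an adjusted p under 0.05; they lie between 0.50 and 1.30, and 25 of the 29 points lie above 0.

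The replicate numbers pair the libraries, so the 12 can be read as 3 times of 4 populations, each a hairpin and a number. With 1 mean per population, which leaves 2 against 2 and was added after the data were seen, 0 members and 0 of all genes were called, and adjusted p for the 5 genes ran from 0.219 for HIST1H2BD to 0.367 for HIST1H3H. With the replicate number as a block 8 members were called higher: HIST1H2BJ, HIST1H3D and HIST1H2AE joined the 5, while the share of all genes called higher went from 9.25% to 18.2%. Among markers of other cells COL1A1 and CDH5 differed with the knockdown. The 4 fibroblast genes summed to 244 to 377 normalized counts in scramble and 511 to 897 in shLAD1 libraries, nearly all of it COL1A1. The other 3, COL1A2, PDGFRB and THY1, were under 10 in every library. The 3 endothelial genes summed to 10.1 to 17.6 and 29.8 to 46.0. Of these CDH5 ran from 2.25 to 7.20 in scramble and from 19.3 to 28.3 in shLAD1 libraries, while the ranges of PECAM1 and VWF overlapped. The leukocyte genes PTPRC, CD3E and LYZ were under 10 in every library. The part of these in the result was not tested.

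Histone 3′ end processing and transcription factors were set beside the histone genes at 240 min. Of 21 tested, 3 were higher and 2 lower in scramble cells, where 11.7% and 8.44% of all genes were called, and 1 was higher and 1 lower in shLAD1 cells, where the shares were 10.8% and 7.76%. NPAT, the coactivator of histone gene transcription in histone locus bodies, was in scramble cells at 379 and 448 at 0 min, 369.6 and 386 at 40 min and 272 and 302 at 240 min, and in shLAD1 cells at 366 and 444 at 0 min, 368 and 405 at 40 min and 253 and 286 at 240 min. Its 240 min libraries were the lowest in both, with changes of -0.52 ± 0.13 (adjusted p = 0.0223) and -0.58 ± 0.13 (adjusted p = 0.0155). HINFP, a zinc finger factor of H4 promoters, changed by -0.75 ± 0.21 in scramble cells (adjusted p = 0.0306). The higher genes were NCBP1, a cap-binding subunit (0.25 ± 0.07), ZC3H8 (0.63 ± 0.19) and, with the largest adjusted p, LSM11 (0.52 ± 0.16), a protein of the U7 particle. In shLAD1 cells SRRT was the higher gene (0.26 ± 0.07). Under total-count or upper-quartile scaling 0 of these were called higher in either kind of cells. Of all genes, these scalings called 8.2% and 8.86% higher in scramble cells and 7.3% and 8.38% in shLAD1 cells. With the replicate block 6 genes of the list were higher and 2 lower in scramble cells and 5 and 3 in shLAD1 cells. The block called 18% and 14.7% of all genes in scramble cells, and 17.2% and 13.3% in shLAD1 cells.

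SLBP, the stem-loop binding protein, did not pass at 240 min, with changes of 0.10 ± 0.06 and 0.10 ± 0.06 (adjusted p = 0.305 and 0.32). It was lower in shLAD1 cells: at 1549.6 and 1506 at 0 min, 1432 and 1445 at 40 min and 1638 and 1643 at 240 min in scramble cells and at 1277 and 1281 at 0 min, 1222 and 1236 at 40 min and 1315 and 1433 at 240 min in shLAD1 cells. All but 1 of the shLAD1 libraries were below all scramble libraries, and the change was -0.25 ± 0.04 (adjusted p = 0.0028). CPSF3, the endonuclease of mRNA 3′ ends, was the other called gene of the list, higher by 0.21 ± 0.06 (adjusted p = 0.0446), a call that total-count scaling moved to an adjusted p of 0.0511.

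Histone genes listed as replication-independent have symbols outside the clustered set and mostly make polyadenylated mRNA. Of this list 19 were in the table and 10 tested. At 240 min 0 were higher and 4 lower in scramble cells, where 11.7% and 8.44% of all genes were called, namely H2AFJ (-0.38 ± 0.08), the linker histone gene H1FX (-0.67 ± 0.16), H2AFV (-0.29 ± 0.08) and the centromeric CENPA (-0.38 ± 0.11), and 1, H1FX (-0.55 ± 0.16), was lower in shLAD1 cells, against 7.76% of all genes. H1FX was in scramble cells at 7675 and 7836 at 0 min, 7415 and 7786 at 40 min and 5272 and 4527 at 240 min, and in shLAD1 cells at 9517 and 7288 at 0 min, 7746 and 6858 at 40 min and 6613 and 4891 at 240 min. Its 240 min libraries lay below the 0 min libraries in both. H2AFZ and H2AFX, which encode the variants known for gene starts and for DNA damage marks, and H3F3B, which encodes the replacement histone H3, did not pass, with changes of -0.11 ± 0.08, 0.05 ± 0.12 and 0.21 ± 0.10 in scramble cells. With the replicate block H3F3B was called higher in both kinds of cells. Between shLAD1 and scramble cells, H2AFJ (0.26 ± 0.05), H2AFV (0.20 ± 0.05) and H2AFX (0.26 ± 0.07) were higher and H3F3B (-0.26 ± 0.06) was lower, or 3 and 1 of the 10, where 9.25% and 9.3% of all genes were called.

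Histone chaperones hold histones on the way to DNA. Of 20 tested, 1 was higher and 6 lower at 240 min in scramble cells, and 2 were higher and 6 lower in shLAD1 cells. Of all genes 11.7% were higher and 8.44% lower in scramble cells, and 10.8% and 7.76% in shLAD1 cells. ASF1A and ASF1B, which carry H3 and H4, changed by -0.72 ± 0.08 and -0.41 ± 0.08 in scramble and by -0.53 ± 0.08 and -0.33 ± 0.08 in shLAD1 cells. NASP, a chaperone of H3 and H4 and of H1, changed by -0.34 ± 0.07 and -0.34 ± 0.07, and the importin IPO4 was higher, by 0.48 ± 0.10 and 0.66 ± 0.10. Between shLAD1 and scramble cells 1 was higher, ASF1A (0.15 ± 0.04), and 3 were lower: IPO4 (-0.38 ± 0.06), HJURP (-0.20 ± 0.04) and SSRP1 (-0.16 ± 0.04), where 9.25% and 9.3% of all genes were called.

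G1/S and DNA replication genes, whose products act when histone genes are known to be active, gave 0 higher and 3 lower of 28 tested at 240 min in each kind of cells, where 8.44% of all genes were lower in scramble and 7.76% in shLAD1 cells. These were RFC3, a clamp loader subunit, MCM2, a helicase subunit, and E2F2, a transcription factor, with changes of -0.33 ± 0.07, -0.42 ± 0.09 and -0.84 ± 0.20 in scramble and -0.31 ± 0.07, -0.38 ± 0.09 and -0.96 ± 0.20 in shLAD1 cells. Total-count scaling called 11 of the 28 lower in scramble and 8 in shLAD1 cells, and 15.9% and 13.8% of all genes. The replicate block called 7 and 8 lower, and 14.7% and 13.3% of all genes, and 1 and 2 higher, and 18% and 17.2%. Between shLAD1 and scramble cells 2 were higher, MCM2 (0.23 ± 0.05) and UHRF1, and 4 were lower, among them RFC3 (-0.28 ± 0.04), TYMS (-0.20 ± 0.05) and SLBP, given above, where 9.25% and 9.3% of all genes were called. In the limma fit 0 genes of the 4 lists were called at 40 min in either kind of cells.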

How the data were processed

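Poly-A selected RNA from HCC70 cells went into TruSeq v2 libraries (per the labels' protocols). STAR, DESeq2 and the build hg19 are named, per the submitters' processing notes; not given in the sources used here are versions, counting tool, annotation, use of strand and the treatment of reads that fit several genes. In the table of 26365 symbols that the authors deposited, the signal columns hold each read count over a size factor of its library: division by the smallest value above 0 gave whole reads, within 0.001, for 100% of values. The deposited table also holds a log2 fold change, a score and p-values of the authors, which were not used here.

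Since the values are not raw counts, limma 3.58.1 (R 4.3.3, trend, robust) was fitted to log2(normalized count + 1) with a mean per group over all 12 libraries. The 13950 genes at 10 or more normalized counts in 2 or more libraries were fitted, and a call is a Benjamini-Hochberg adjusted p under 0.05 over all of these within 1 of 7 comparisons. Fold changes on this scale understate changes of low genes. edgeR 4.0.16 (quasi-likelihood, TMM) and DESeq2 1.42.0 on recovered reads, other scalings, pseudocounts, filters, replicate blocks and left-out libraries were alternatives. The fit was tested on simulated data.

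Libraries 1 and 2 of a group differed by more than counting noise (chi-square per degree of freedom 9.04 to 22.6). The replicate numbers paired the samples: deviations from group means correlated at 0.645 to 0.734 between groups with the same shRNA (6 pairs) and at 0.247 to 0.307 between groups with different shRNAs (9 pairs). The block is therefore given beside results it changes.

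Stem-loops, transcript lengths and unique windows came from GENCODE v29 and promoters from RefSeq GRCh38.p14, matched through gene identifiers. The authors' build differs, so no coordinates of theirs are given. Named genes are the 3 with the highest mean in each class, every called member of a comparison, the up to 4 called genes of smallest adjusted p in each list, and SLBP, NPAT, H2AFX, H3F3B, H2AFZ and LAD1. The genes and lists were chosen with earlier results of these data known. 1 cell type marker is not reported here.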

Additional observations from a re-analysis of the deposited data

Results flagged for a closer look

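In 2 genes the changes at 40 min of EGF went one way in both replicate numbers of scramble cells and the other way in both of shLAD1 cells. HIST1H1B, an H1 gene, changed on the log2 scale by -0.31 and -0.72 in scramble and by 1.06 and 0.30 in shLAD1 cells, a difference of 1.20, at levels of 2.25 to 11.1 normalized counts. HIST1H2AE, an H2A gene, changed by 0.33 and 0.31 in scramble and by -0.41 and -0.89 in shLAD1 cells, a difference of -0.97. In the limma interaction test neither passed, with adjusted p of 1 for both and unadjusted p of 0.233 for HIST1H1B and 0.0286 for HIST1H2AE.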

How the results depend on the processing

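In every alternative run the members called at 240 min were lower and those called in the knockdown higher, and 0 were called at 40 min or in the interactions. At 240 min in scramble cells (5 called), total-count scaling gave 8, no filter on low values 3, a minimum of 50 normalized counts 3 and DESeq2 3; leaving out a library gave 0 to 5. In shLAD1 cells (1 called), upper-quartile scaling gave 2, total-count scaling 4, a pseudocount of 5 gave 2, a minimum of 50 gave 0, edgeR 2 and a fit of only the groups compared 0; leaving out a library gave 0 to 2, with 0 without replicate 2 at 0 min and 2 without replicate 2 at 240 min. For the knockdown (5 called), leaving out a library gave 3 to 6, and HIST1H1C, HIST1H2BD and HIST1H2AC were called each time; 1 mean per population gave 0. Where a group keeps 1 library, it is assumed to vary like the others. Leaving out a library lowered the calls of all genes in each 240 min fit and in most knockdown fits. The fit of 1 mean per population called 0% of all genes. The replicate block gave 8, 4 and 8 in these comparisons, where it called 32.7%, 30.5% and 36.1% of all genes in place of 20.2%, 18.5% and 18.6%. The block within each shRNA gave 11 and 7 at 240 min, and called 48.1% and 46.2% of all genes. The share of all genes called lower at 240 min moved too. In scramble cells it went from 8.44% to 15.9% with total-count scaling and 5.38% with no filter. It was 10.2% with a minimum of 50 and 7.35% with DESeq2. In shLAD1 cells it went from 7.76% to 10.5% with upper-quartile and 13.8% with total-count scaling. A pseudocount of 5 gave 7.72%, a minimum of 50 gave 9.17% and edgeR 8.14%. The fit of only the groups compared gave 0.411%. The cause of these moves was not tested.

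Scaling moved the median of all genes at 240 min from -0.02 to -0.11 (upper-quartile) and -0.14 (total-count) in scramble cells, and from -0.01 to -0.08 and -0.13 in shLAD1 cells. The higher share of calls went from 58.1% to 40.8% and 34.1% in scramble and to 44.3% and 34.6% in shLAD1 cells. Of the 73 genes 33 with reads fell under the filter and 11 had 0 reads, 7 of these with under 3% unique windows; the part of depth in this was not tested.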
